A study of Homo sapiens with 3 samples.

Results

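The array of the new monolayer (NM), grown from melanoma bodies that had been returned to standard medium, was set against the array of the melanoma bodies (MB) themselves, to describe which genes differed once cells had left the body state. Of 16635 known genes with a value on the series' 3 arrays, 13257 were measured on at least 1 of these 2 arrays, meaning that the gene's probe was well above background there, and 378 of them differed by 5-fold or more. A known gene is one whose probe carries a RefSeq NM_ accession and a current name that is not provisional. The fold and a minimum raw signal of 100 arbitrary units (a.u.) follow the study's methods, which do not say which array must exceed the minimum. Here the brighter array had to exceed it before scaling.

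All 3 populations came from 1205Lu, a human melanoma line established from a lung metastasis that the WM793 line formed as a xenograft in mice. Cells of the original monolayer (OM) had 14 days in RPMI-1640 with 10% fetal calf serum, the standard medium. MB cells had 14 days in hESC medium, which is KnockOut serum replacement at 20% in DMEM F-12, and aggregated into attached bodies. NM cells had the same 14 days as bodies and then 10 days in standard medium, and residual bodies were removed before the RNA was prepared. NM thus differed from MB in medium, growth form and time in culture, and with 1 culture on 1 array a side these and the chance difference between cultures cannot be told apart. OM values are given beside each pair as the level of the culture of origin.

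Several of the pathways described below answer to supply from outside the cell. The transcription factor ATF4 is made when amino acids are scarce or protein folding is stressed, and it switches on genes for amino acid synthesis, uptake and tRNA charging. The sterol regulatory element binding proteins switch on cholesterol synthesis when membrane sterol is low, while the liver X receptors (LXR) respond to oxidised sterols and switch on cholesterol export. NF-kB drives chemokine and cytokine genes and also its own inhibitors. Melanocytes descend from the neural crest, which also gives rise to Schwann cells, and melanoma cells can carry transcripts of either lineage.

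Signals are spot intensities in a.u. after division by each array's 75th percentile, put back on the a.u. scale by 1 common factor. The 3 arrays lie on 1 slide with 1 scan time, and each had between 26516 and 29125 of 41000 probes well above background, with the lowest number on NM. With 1 array a side no test was made. The only repeated measurement is technical: for the 264 probes printed in 10 spots, the SD of the log2 ratio of single spots was 0.07 where the dimmer array was over 1000 a.u., 0.08 between 100 and 1000 a.u., and 0.48 under 50 a.u. For a probe that failed to clear background on the dimmer array, only a lower bound is given ("at least"). Its denominator is the array's floor, the weakest signal that still counted as well above background (17.6 a.u. for MB, 31.8 for NM), or the probe's own signal if that was larger. Probe positions are in the hg17 build, as deposited, and the exon or untranslated region that a probe lies in was not analysed here.

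Vimentin (VIM), the intermediate filament protein of mesenchymal and melanoma cells, read 459225 (OM), 391598 (MB) and 501797 a.u. (NM). SOX10, the transcription factor of the neural crest lineage, read 6316, 8502 and 5340 a.u. in the same order, and MITF, the master regulator of melanocytes, 427, 650 and 602 a.u. The labelled cell type was therefore borne out by these markers, whereas the pigment enzymes TYR and TYRP1 stayed at background on all 3 arrays and MLANA read 35.8 a.u. on MB and was not well above background on NM. Of the 12 melanoma lineage markers, 10 were measured, with 3 lower by 2-fold and 0 higher. Their summed signal was 563791 a.u. on MB and 561125 on NM, most of it from VIM, and without VIM the other 9 summed to 172194 and 59328 a.u. The largest difference was in NES, a filament protein of neural progenitors, with 86105 a.u. on MB and 19093 on NM. The defining markers EPCAM, KRT5 and CDH1 of epithelial cells, LUM and COL3A1 of fibroblasts, CDH5 and KDR of endothelial cells, and PTPRC and SPI1 of leukocytes were not well above background on any array. Other members of these lists were measured. For epithelial cells these were 3 of 7, with summed signals over the list of 401 a.u. on MB and 184 on NM and KRT14 lower (338 and 128.5 a.u.). For fibroblasts 4 of 6 were measured, with sums of 13937 and 7070 a.u. and PDGFRA lower (8954 and 3468 a.u.). The part of such cells in the differences below was not tested.

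Of 40992 probes with a value on both arrays, 377 (0.920%) had a signal higher in NM by 5-fold or more and 557 (1.36%) a lower one. Counted as known genes, 202 of 13257 (1.52%) were higher and 176 (1.33%) were lower, so that 53.4% of these genes were higher in NM. Without scaling between arrays this share was 39.4%, with 161 genes higher and 248 lower. Scaling to GAPDH, ACTB and HSP90AA1 gave 179 genes higher and 215 lower (45.4%). Scaling to the percentile over probes well above background on all arrays gave 194 and 198 (49.5%). With quantile normalization the share was 54.2% and with spike-in scaling 56.3%. Which direction held more genes thus depended on the scaling. Among the probes past 5-fold, 134 that were higher and 317 that were lower had no known gene. Large folds cannot be compared evenly between the 2 directions, since the floor is 17.6 a.u. on MB and 31.8 on NM. A lower gene at background on NM thus needs a brighter signal to reach the same bound. Folds were counted as their bound where one array was at background. On that count 78 of the higher genes and 25 of the lower genes differed by 10-fold or more, and 23 and 9 by 20-fold or more. The part of the floors in these counts was not tested. Both arrays were well above background for 151 of the higher and 108 of the lower genes, and in the others the fold is a bound. The bound itself reached 5-fold in all 202 higher genes and in 142 of the 176 lower genes. The count for higher genes could not have been lower, since any NM signal over the minimum is more than 5-fold over the MB floor of 17.6 a.u. With the NM floor at 31.8 a.u., only lower genes could fall short. These counts therefore do not show firmer folds among the higher genes.

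Most genes stayed near their body level. Of the measured known genes, 78.9% lay within 2-fold, 1456 (11.0%) passed 2-fold as higher in NM and 1343 (10.1%) as lower. The median log2 ratio of NM over MB was 0.06, with 5th and 95th percentiles of -1.5 and 1.51. Scaling to the housekeeping genes GAPDH, ACTB and HSP90AA1 (the study's methods name HSP90 without the gene) moved this median by -0.11 and leaving out scaling moved it by -0.27. A second probe gave a further view of the same transcript in 48 of the higher genes and 56 of the lower ones. There, 86.2% of 58 other probes passed 2-fold as higher and 79.7% of 69 passed it as lower. For 22 higher genes and 30 lower genes, the bright spot lay within 2 positions of another spot that was bright on that array alone, and the part of this closeness in the calls was not tested. Just inside 5-fold among the higher genes were ARHGAP29 (5.00) and LARP6 (5.05), and just outside GFAP and VXN (both 5.00 after rounding). Among the lower genes, ANKRD34A (5.02) and SOX5 (5.04) were inside and FKBP6 (5.00) and SPRY4 (4.95) outside.

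**Figure D1:**
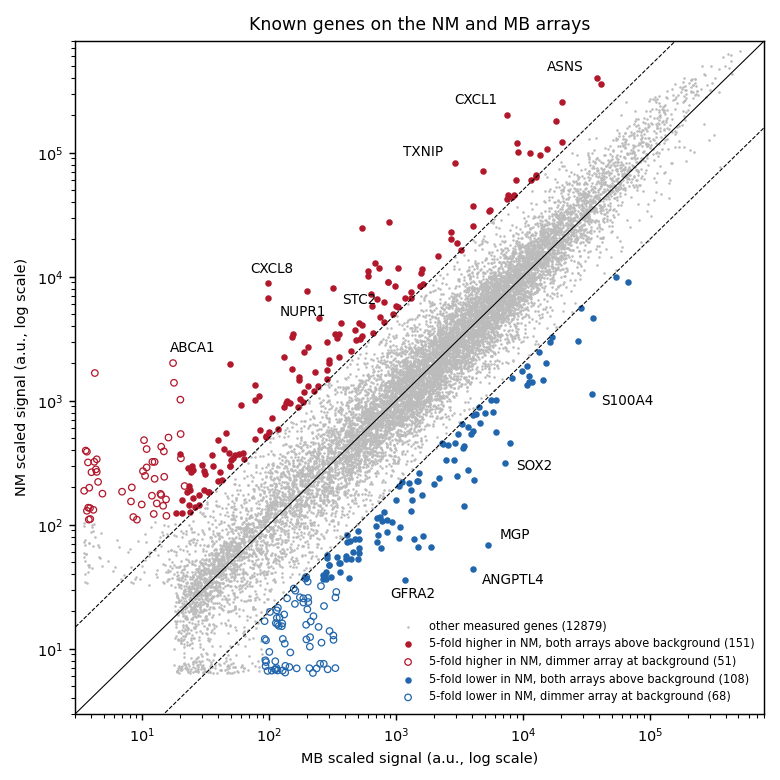
Scaled signal of each measured known gene on MB (horizontal axis) and NM (vertical axis), in a.u. on log scales, with the line of equal signal and dashed lines at 5-fold. Of the 13257 genes, 202 lie 5-fold or more above (red) and 176 below (blue), and open circles mark the 51 and 68 of these that were at background on the dimmer array.

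The genes with the largest folds higher in NM were led by a sterol exporter, a glycan enzyme and chemokines. ABCA1, which moves cholesterol out of the cell, read 1452 a.u. on OM and 2012 on NM but was not well above background on MB (17.6 a.u.), a difference of at least 114-fold (chromosome 9, 104623259 to 104623318). Its second probe read 44.1, 9.21 and 45.9 a.u., with MB at background and a difference of at least 2.61-fold, and the third probe cleared background on neither MB nor NM. FUT1, the fucosyltransferase that builds the H blood group antigen, was at background on MB and read 162 a.u. on OM and 1673 on NM, at least 95.2-fold higher in NM than MB. CXCL8, a chemokine that draws neutrophils, read 1673 (OM), 99.0 (MB) and 8831 a.u. (NM), and was 89.2-fold higher. TNFRSF9, a costimulatory receptor of the TNF family, was at least 78.2-fold higher, with 217 a.u. on OM and 1396 on NM. NUPR1, a small chromatin protein induced by stress, read 298, 99.3 and 6698 a.u. on OM, MB and NM and was 67.4-fold higher.

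In these 5 genes NM was above OM as well, by the signals. ANKFN1 followed, at least 50.8-fold higher in NM than MB. UBD, a ubiquitin-like protein that marks others for degradation, read 2657 (OM), 537 (MB) and 24676 a.u. (NM), 46.0-fold higher. CYRIA, which binds the GTPase Rac, was 40.1-fold higher, and SV2B, a glycoprotein of synaptic vesicles, 38.3-fold. ACKR3, a receptor that scavenges the chemokine CXCL12, was at least 28.7-fold higher, with 39.8 a.u. on OM and 505 on NM. TXNIP, which binds thioredoxin and restrains glucose uptake, read 7019 (OM), 2943 (MB) and 82864 a.u. (NM), a 28.2-fold difference. IL21R, the interleukin 21 receptor, was at least 26.7-fold higher. The remaining 3 of the 15, CXCL2, CXCL1 and STC2, are given with their groups. By the rule for naming, CSF3R was passed over because its spot lies near another that was bright on NM alone.

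On the lower side, ANGPTL4 had the largest fold. This secreted inhibitor of lipoprotein lipase read 4038 a.u. on MB and 43.7 on NM, 92.4-fold lower, and was not well above background on OM (chromosome 19, 8345169 to 8345228). MGP, which keeps soft tissue from calcifying, read 133 (OM), 5352 (MB) and 68.8 a.u. (NM), 77.8-fold lower. GFRA2, the receptor subunit for the neurotrophic factor neurturin, read 59.7, 1175 and 35.7 a.u., 32.9-fold lower. Its other measured probes gave log2 ratios of -5.31 and -2.47. S100A4, a calcium-binding protein of motile cells, had 35409 a.u. on MB, against 1227 on OM and 1128 on NM, 31.4-fold lower. GJB1, a gap junction protein of myelinating Schwann cells, read 237, 1886 and 65.7 a.u., 28.7-fold lower. In each of these 5 OM and NM both lay well below MB.

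RASL12, a Ras-like GTPase, was 24.6-fold lower in NM than MB, with a log2 ratio of -2.81 on its other measured probe. SOX2, a transcription factor of neural and pluripotent stem cells, read 564 (OM), 7226 (MB) and 314 a.u. (NM), 23.0-fold lower, and its second probe gave a log2 ratio of -4.56 against -4.53. CPVL, a carboxypeptidase, was 22.4-fold lower, RLBP1, a carrier of retinaldehyde, 20.2-fold, and the synaptotagmin SYT12 18.2-fold. LYPD1, which dampens nicotinic receptors, was 17.4-fold lower, from 7874 a.u. on MB to 453 on NM. ID4, which blocks the DNA binding of basic helix-loop-helix factors, read 55.8, 1058 and 77.7 a.u., 13.6-fold lower. ERBB3, the neuregulin receptor of Schwann cell precursors, read 744, 3674 and 276.5 a.u., 13.3-fold lower. Its other measured probes gave log2 ratios of -4.49 and -1.31. HR, a corepressor of hair follicle cells, was 12.3-fold lower and the membrane metalloproteinase MMP16 11.8-fold lower. SCARA5, at 18.0-fold, was passed over because its other probe had a log2 ratio of only -0.39. These 30 genes were chosen for their large folds. None fell under 5-fold in any of the 11 other ways of scaling, background correction or summary that were tried.

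**Figure D2:**
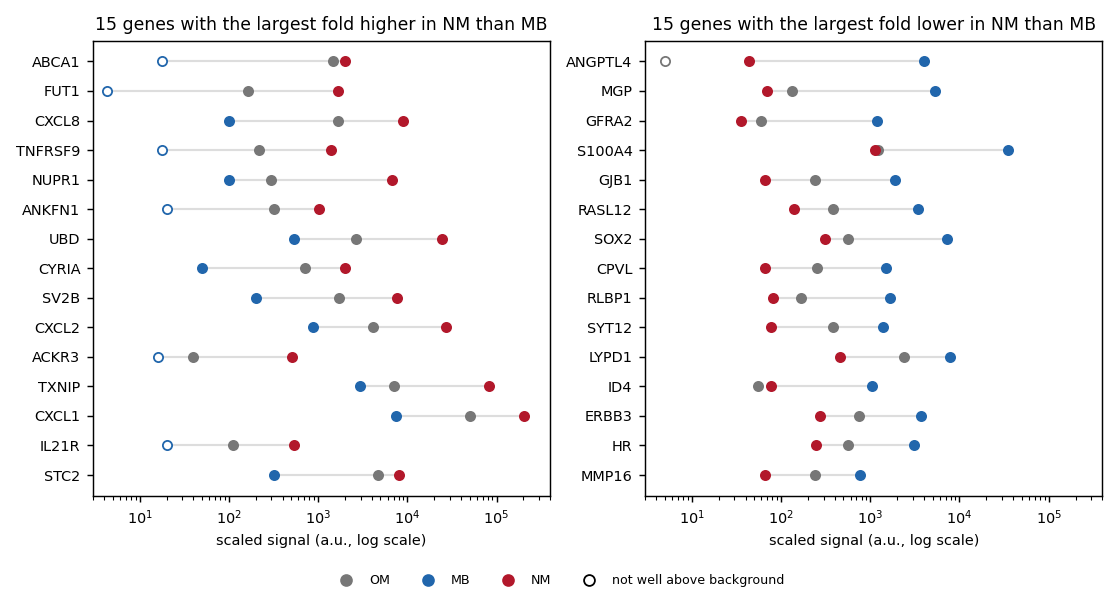
Scaled signal in a.u. (log scale) on the OM (grey), MB (blue) and NM (red) arrays for the 15 named genes with the largest fold higher (left) and lower (right) in NM than MB, 1 probe a gene and 1 array a point, with open circles where the probe was not well above background. On the left MB lies lowest in all 15 genes and NM highest, and on the right MB lies highest in all 15.

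The 46 gene lists were counted at 2-fold, against 11.0% of all measured known genes higher and 10.1% lower. These counts use the signals as they stand, also for members at background on the dimmer array, whose bound can be under 2-fold. Their medians ran from 4.49 to -1.34 on the log2 scale, 7 of them at 1 or more and 2 at -1 or less. The lists hold 683 distinct measured genes and 72 of the 378 genes past 5-fold, and the other 306 are in no list. The sign of the median depended on the way of scaling, background correction or summary in 14 of the 46 lists, all of which had a median between -0.34 and 0.42, and for these only counts of members are read.

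**Figure D3:**
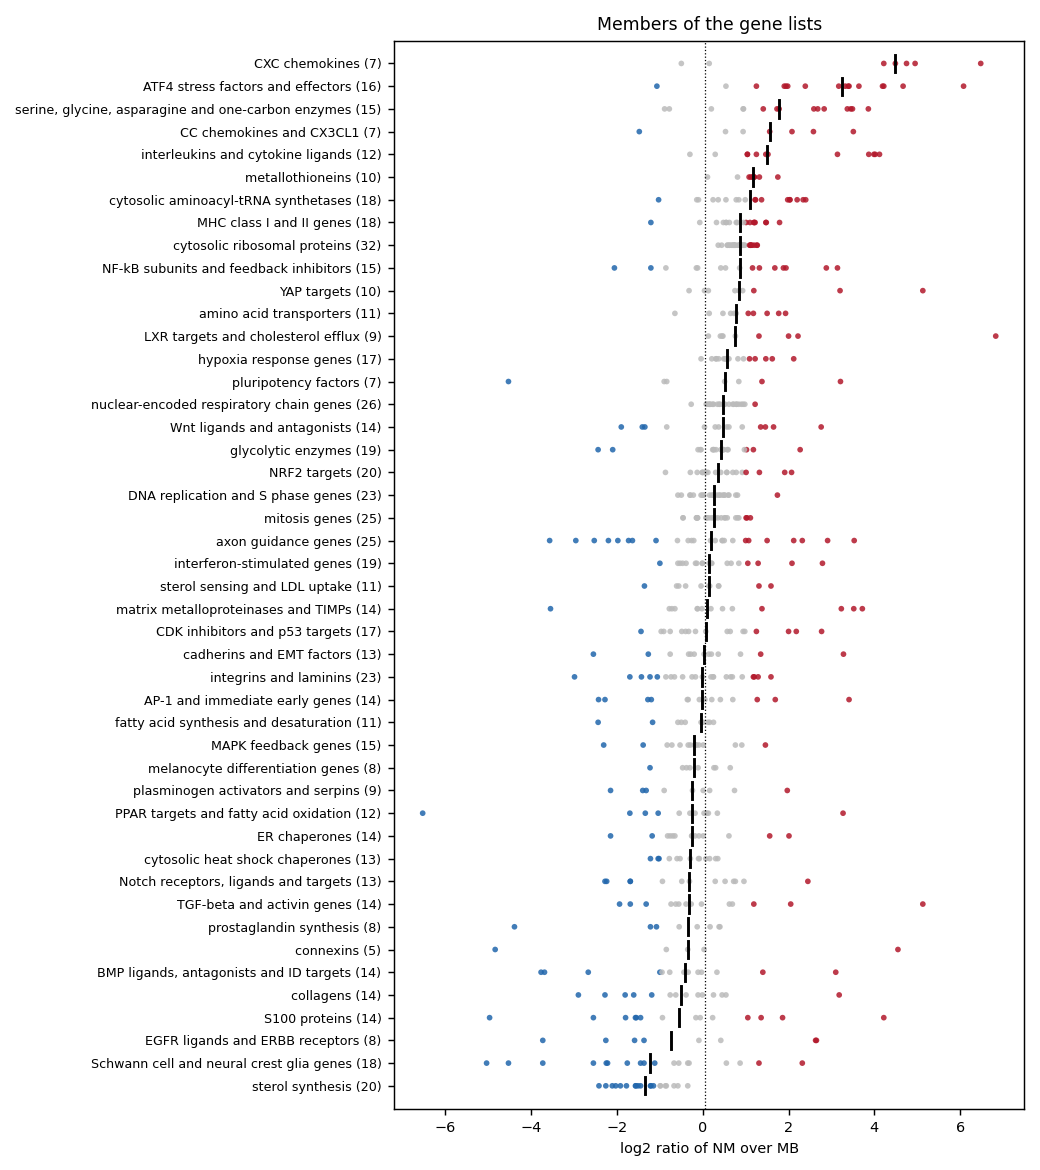
Log2 ratio of NM over MB of each measured member (points) of the 46 lists, with the number of measured members in brackets, the list median as a black bar and the median of all measured genes, 0.06, as a dotted line. Points are red at 2-fold or more higher in NM and blue at 2-fold or more lower, with CXC chemokines and ATF4 genes at the top and sterol synthesis at the bottom.

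In each of the 4 lists of the amino acid response, more genes were 2-fold higher in NM than lower. Of 16 measured ATF4 factors and effectors, 14 were 2-fold or more higher and 1 was lower, with a median log2 ratio of 3.24. Of 15 measured enzymes of serine, glycine, asparagine and one-carbon metabolism, 10 were higher and 0 lower (median 1.78). Among 11 amino acid transporters 5 were higher and 0 lower (median 0.78), and among 18 cytosolic aminoacyl-tRNA synthetases 9 were higher and 1 lower (median 1.10).

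ATF4 itself, the hub of the response, read 212043 (OM), 64534 (MB) and 254607 a.u. (NM), a log2 ratio of 1.98. Factors that it induces follow. DDIT3, which promotes death under lasting stress, read 3828, 690 and 12845 a.u., 18.6-fold higher in NM. ATF3 was 10.6-fold higher, at 5278, 862 and 9132 a.u. TRIB3, a pseudokinase that feeds back on ATF4, read 71058, 20534 and 255169 a.u., 12.4-fold higher, and its second probe had a log2 ratio of 3.92. Among the effectors, CHAC1, which breaks down glutathione, read 9840, 608 and 11106 a.u., 18.3-fold higher, and STC2, a secreted glycoprotein, 4690, 318 and 8112 a.u., 25.5-fold higher. SESN2 (10.5-fold) and DDIT4 (9.97-fold), both of which restrain mTOR signalling, were also higher, as were VLDLR, a lipoprotein receptor (8.99-fold), and the stress cytokine GDF15 (5.24-fold). ATF5 went the other way, with 1718 a.u. on MB and 816 on NM, a log2 ratio of -1.07.

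ASNS, which makes asparagine, read 193513 (OM), 38593 (MB) and 400152 a.u. (NM), 10.4-fold higher, but its other measured probe had a log2 ratio of only 1.45. PSAT1 and PHGDH, which make serine from a glycolytic intermediate, were 14.5-fold and 6.42-fold higher, at 4863 and 4021 a.u. on MB and 70567 and 25796 on NM. CTH and CBS, which pass sulfur from homocysteine to cysteine, were 11.3-fold and 6.02-fold higher. PCK2, the mitochondrial enzyme that makes phosphoenolpyruvate, was 10.9-fold higher and MTHFD2, of mitochondrial folate metabolism, 7.09-fold. In each of the 7 enzymes NM was the highest of the 3 arrays and MB the lowest. ALDH18A1, of proline synthesis, and SHMT1, the cytosolic serine hydroxymethyltransferase, had log2 ratios of -0.89 and -0.78, within 2-fold.

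Of the transporters 0 passed 5-fold. SLC7A5 and SLC3A2, the chains of the large neutral amino acid exchanger, had log2 ratios of 1.93 and 1.77, and the cystine carrier SLC7A11 had 0.78. Among the synthetases the order ran from WARS1 for tryptophan (5.28-fold, 8567 a.u. on MB and 45203 on NM) and YARS1 for tyrosine (5.05-fold) through CARS1, SARS1, AARS1 and GARS1, with log2 ratios of 2.20, 2.03, 2.03 and 1.98. RARS1 for arginine and VARS1 for valine stayed at -0.10 and -0.14, and HARS1 for histidine was lower, at -1.03.

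Short stretches of promoter are shown here because they carry the element that ATF4 dimers bind. The element was searched as TGATGNAA, on both strands, in the 300 bases from 250 before to 50 after the start of each gene (RefSeq, GRCh38.p14), and 3.62% of 35116 promoters held it. It was found in 2 of the 14 ATF4 factors and effectors with a promoter entry, 2 of 11 serine and one-carbon enzymes, 3 of 10 transporters and 6 of 14 synthetases. The genes with and without it both include members that were 2-fold or more higher. These were 8 of the 14 synthetases and 4 of the 6 with the element. In the ATF4 list they were 13 of 14 and 2 of 2, among the enzymes 7 of 11 and 1 of 2, and among the transporters 5 of 10 and 2 of 3. A link between the element and the differences was not tested. Each line gives 30 bases on the strand of the gene, with the match in capitals.
ASNS: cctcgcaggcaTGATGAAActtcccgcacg
ATF3: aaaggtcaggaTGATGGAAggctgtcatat
CHAC1: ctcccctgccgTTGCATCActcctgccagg
AARS1: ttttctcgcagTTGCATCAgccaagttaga
The stretches lie at chr7:97872458-97872487 (minus strand) for ASNS, chr1:212565205-212565234 (plus) for ATF3, chr15:40953251-40953280 (plus) for CHAC1 and chr16:70289675-70289704 (minus) for AARS1. In CHAC1 and AARS1 the match is on the opposite strand and both read TTGCATCA. A match is a run of letters and not a measured binding site.

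**Figure D4:**
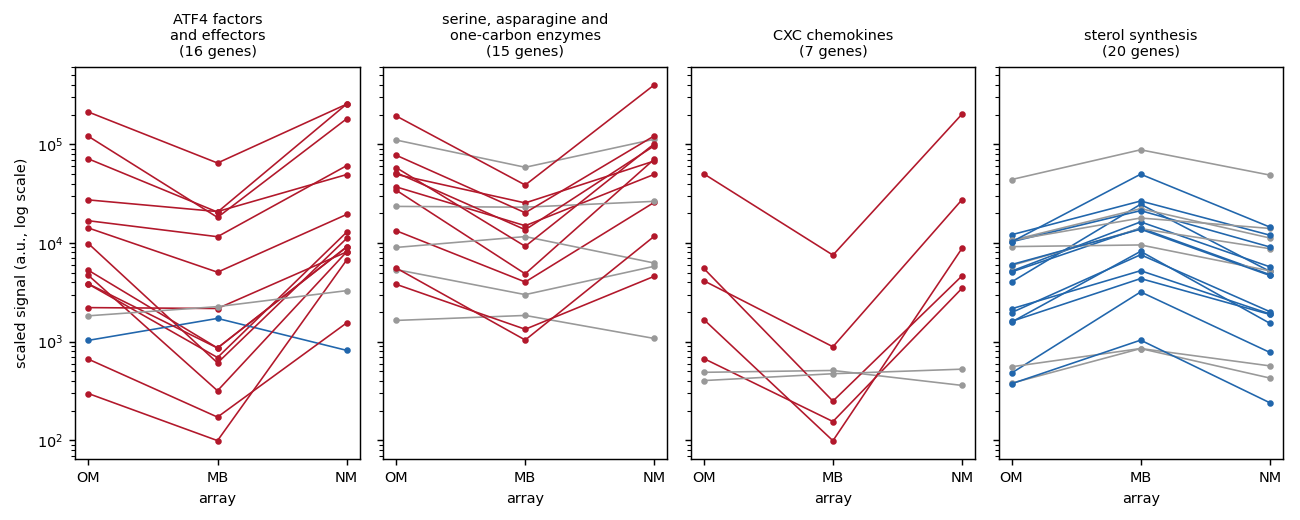
Scaled signal in a.u. (log scale) on the OM, MB and NM arrays of each measured member of 4 lists, 1 line a gene, red where NM was 2-fold or more over MB, blue where it was 2-fold or more under MB and grey otherwise. Lines of the ATF4, serine and chemokine lists dip on MB, with 14 of 16, 10 of 15 and 5 of 7 genes red, and those of sterol synthesis peak there, with 13 of 20 blue.

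Cholesterol synthesis stood on the other side. Each of the 20 measured enzymes had a lower signal in NM than MB, 13 of them by 2-fold or more, with a median log2 ratio of -1.34. HMGCS1, at the entry of the mevalonate pathway, read 4022 (OM), 24635 (MB) and 5157 a.u. (NM), a log2 ratio of -2.26, and its second probe gave -2.76. TM7SF2, which reduces a late sterol intermediate, had the largest difference, from 8215 a.u. on MB to 1536 on NM, 5.35-fold lower. EBP, the sterol isomerase, had the smallest, at -0.35. DHCR7, the last reductase, read 10235, 49696 and 14494 a.u., and LSS, which closes the sterol rings, 10268, 21239 and 9105 a.u. A sterol regulatory element written as TCACNCCAC was in 0 of 15 promoter entries of these genes, which says only that these letters are not in the 300 bases searched, and in 1.13% of all promoters.

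Among genes that sense and take up sterol, 2 of 11 measured members were 2-fold or more higher and 1 was lower. SREBF2, the factor of sterol synthesis, had a log2 ratio of -0.56 and SREBF1, the factor of fatty acid synthesis and an LXR target, 1.59, with 32778 a.u. on MB and 98660 on NM. MYLIP, a ubiquitin ligase that LXR induces, was higher too, at 1.31. All 9 measured LXR targets and efflux genes had a higher signal in NM (8 without scaling), 4 of them by 2-fold or more (median 0.76). Beside ABCA1 these were MYLIP and the exporters ABCG4 (45.3 a.u. on MB and 181 on NM, log2 ratio 2.00) and ABCG1, which was not well above background on MB.

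Of 11 fatty acid synthesis genes, 2 were lower and 0 higher. ACSS2, which activates acetate, read 6696, 16240 and 3002 a.u. and was 5.41-fold lower in NM, although its second probe had a log2 ratio of -0.94. FASN, fatty acid synthase, had -1.17, while SCD, the desaturase, stayed at 11966 and 11935 a.u. Of 12 PPAR targets and oxidation genes, 4 were lower and 1 higher. With ANGPTL4 went CPT1A, which admits fatty acids to mitochondria (912 a.u. on MB and 360 on NM, log2 ratio -1.34), and PDK4 (-1.04). LPL, the lipase that ANGPTL4 inhibits, was 9.62-fold higher, at 3112 (OM), 358 (MB) and 3443 a.u. (NM).

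CXC chemokines had the highest median of the 46 lists. Of 7 measured CXC chemokines, 5 were higher in NM by 5-fold or more and 0 lower by 2-fold, with a median log2 ratio of 4.49. CXCL1 read 50115 (OM), 7526 (MB) and 201972 a.u. (NM), 26.8-fold higher. CXCL2 read 4138, 887 and 27445 a.u., 30.9-fold higher, with 4.94 and 4.95 from its probes on the log2 scale. CXCL3 was 22.4-fold higher on the probe that represents it, and its other probe gave a log2 ratio of 5.52. These 3 and CXCL8 are ligands of the receptors CXCR1 and CXCR2 and draw neutrophils. CXCL14, which has another receptor, read 5512, 250 and 4637 a.u., 18.6-fold higher, and is the only one of the 5 whose NM signal lay under that of OM. CXCL5 and CXCL16 stayed within 2-fold, at -0.50 and 0.15. CXCL9, CXCL10 and CXCL11, the interferon-induced members, were not well above background on MB or NM.

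CXCL8, CXCL1, CXCL3 and CXCL2 are neighbours on chromosome 4, within 354 kb (74974300 to 75328079), where 5 of 9 known genes were measured and 4 were higher. The stretches below are printed because CXCL1, CXCL2 and CXCL3 share the same NF-kB letters ahead of their starts. The site was searched on both strands, as GGG, any 2 bases and then TTTCC, in the same promoter entries, of which 1.91% held it, and its matches overlapped those of the other elements in 0 promoters. It was found in 4 of 6 measured CXC chemokines with an entry, 1 of 4 CC chemokines, 1 of 9 cytokine ligands and 6 of 13 NF-kB subunits and inhibitors. Members 2-fold or more higher were 5 of these 6 CXC chemokines and 3 of the 4 with the site. For the CC chemokines they were 2 of 4 and 1 of 1, for the cytokine ligands 7 of 9 and 1 of 1, and for the NF-kB genes 6 of 13 and 3 of 6.
CXCL1: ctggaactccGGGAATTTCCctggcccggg
CXCL2: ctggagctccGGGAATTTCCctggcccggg
CXCL3: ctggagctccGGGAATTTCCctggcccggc
IL6: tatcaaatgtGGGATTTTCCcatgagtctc
The capitals mark the match, which begins 79 bases before the start of CXCL1 and CXCL3, 78 before that of CXCL2 and 73 before that of IL6. The stretches lie at chr4:73869304-73869333 (plus strand) for CXCL1, chr4:74099254-74099283 (minus) for CXCL2, chr4:74038749-74038778 (minus) for CXCL3 and chr7:22727117-22727146 (plus) for IL6, in GRCh38.p14. CXCL5, which holds a match as well, differed by less than 2-fold.

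Of 12 measured interleukins and cytokine ligands, 10 were 2-fold or more higher and 0 lower (median 1.5). IL1B, a main inflammatory cytokine, read 237816 ± 11244 (OM, mean ± SD of 10 spots), 41034 ± 933 (MB) and 361589 ± 27189 a.u. (NM, 9 spots), 8.81-fold higher. IL1A, from the same family, was not well above background on MB and read 714 ± 28.0 a.u. on OM and 244 ± 9.92 on NM, at least 13.9-fold higher (4.12-fold with normexp) and still under OM. IL6 read 7295 ± 258, 740 ± 24.6 and 11724 ± 399 a.u., 15.8-fold higher. These differences exceed the spread over spots, but that spread leaves out differences between cultures. TSLP, an epithelial alarm cytokine, was 17.3-fold higher and CSF2, a growth factor of granulocytes and macrophages, at least 8.30-fold (2.94-fold with normexp). LIF and IL11 were just past 2-fold, both at 1.04, which other scalings brought under 2-fold, and IL33 was not, at 0.29.

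Among the CC chemokines, 4 of 7 were higher and 1 lower (median 1.56). CCL20 read 1056, 632 and 7225 a.u., 11.4-fold higher, and CCL2, which draws monocytes, 24780, 7617 and 32193 a.u. (log2 ratio 2.08). CCL3, the lower one, read 58.2 a.u. on MB and was not well above background on NM. It is counted by its signals as they stand, and its bound is under 2-fold. Of 15 NF-kB subunits and feedback inhibitors, 7 were higher and 2 lower (median 0.86). ICAM1, an adhesion molecule, read 48686 ± 1215, 11383 ± 296 and 100373 ± 1250 a.u., 8.82-fold higher, and BIRC3, an inhibitor of apoptosis, was 7.35-fold higher. NFKBIA, which holds NF-kB in the cytoplasm, had a log2 ratio of 1.94 and NFKB2 1.88. TNFAIP3, another inhibitor of the pathway, did not follow, at -0.12, and TRAF1 was lower, from 25654 a.u. on MB to 6166 on NM.

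Of 19 interferon-stimulated genes, 4 were higher and 1 lower. ISG20, an exonuclease, was 6.90-fold higher, whereas ISG15, IFIT1 and MX1 had log2 ratios of -0.47, -0.53 and 0.21. Of 18 MHC class I and II genes, 8 were 2-fold or more higher and 1 lower (median 0.87). B2M, the light chain of class I, had a log2 ratio of 1.22. Array probes for class I genes may share signal between family members. In prostaglandin synthesis, 3 of 8 genes were lower and 0 higher. PTGS2, the inducible cyclooxygenase, read 53.5 ± 5.10, 331 ± 10.1 and 143 ± 8.71 a.u. (log2 ratio -1.22). PTGS1, the constitutive form, was above background on MB alone, at least 4.23-fold lower in NM on 1 of its probes, while the other was not well above background on either array.

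Genes of Schwann cells and neural crest glia were lower in NM in 10 of 18 cases and higher in 2 (median -1.24). In bulk RNA, fewer cells of a kind and less RNA per cell cannot be told apart. GFRA2, SOX2, ERBB3 and the cadherin CDH19 (436 a.u. on MB and 74.6 on NM, 5.85-fold lower, 3.23-fold with normexp) passed 5-fold. The other measured probe of CDH19 had a log2 ratio of -1.49. LGI4, a secreted factor of Schwann cells, read 39.1, 289 and 60.7 a.u., a log2 ratio of -2.25 and just short of 5-fold. SOX8, a partner of SOX10, had -2.22 on one probe and 1.13 on its other. PTPRZ1, a receptor phosphatase of glial precursors, had -1.76 and S100B, the glial calcium-binding protein, -1.45. SOX10 itself had -0.67. GFAP, the filament protein of astrocytes and some Schwann cells, was the member farthest in the other direction, with 224 (OM), 81.1 (MB) and 405 a.u. (NM) (2.32), and MBP, of myelin, had 1.31 (0.84 with normexp). Of 8 measured melanocyte genes 1 was lower, the melanocortin receptor MC1R (20684 a.u. on MB and 8801 on NM), and 0 were higher.

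Among 7 measured pluripotency factors, SOX2 alone was lower by 2-fold. POU5F1 had -0.84 and NANOG was not well above background on MB or NM. KLF4 was higher, at 508 a.u. on MB and 1318 on NM. LIN28B, which blocks a family of microRNAs, cleared background on NM alone, at 33.9 a.u.

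Of 8 measured EGFR ligands and ERBB receptors, 2 were higher and 4 lower. Opposite to ERBB3, the receptor EGFR, printed in 10 spots, read 602 ± 21.4 (OM), 359 ± 15.5 (MB) and 2253 ± 93.7 a.u. (NM), 6.28-fold higher. ERBB2, the partner of both, stayed at 9541 and 8956 a.u. NRG1, the ligand of ERBB3, was 6.20-fold higher (1311, 285 and 1767 a.u.) and 1 of its other probes gave a log2 ratio of 2.61 and another 1.00. TGFA, a ligand of EGFR, was lower, with 2908, 3509 and 731 a.u. (-2.26). Of 15 feedback genes of the MAPK pathway, 2 were lower and 1 higher. SPRY4 read 7179, 19463 and 3932 a.u., 4.95-fold lower, whereas DUSP6 and SPRY2 had -0.20 and -0.15. Immediate early genes went both ways, with 3 of 14 higher and 4 lower. EGR1 read 6111, 13470 and 2492 a.u., 5.40-fold lower, and FOSL1 was higher at 1.69.

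Of 14 genes of the BMP pathway, 4 were 2-fold or more lower and 2 higher. ID4 stood apart from its family, since ID1, ID2 and ID3 had log2 ratios of -0.34, -0.03 and -0.11. BMP4, a ligand, read 38.5, 299 and 47.0 a.u., 6.37-fold lower, and BMPER, which binds BMPs outside the cell, was at least 10.5-fold lower, but with normexp background correction these were 2.93-fold and 3.85-fold. BMP6, another ligand, was 8.56-fold higher, at 4367, 984 and 8428 a.u. In the Notch pathway, 4 of 13 were lower and 1 higher. The receptor NOTCH1 read 323 ± 9.18, 774 ± 36.3 and 164 ± 6.57 a.u., a log2 ratio of -2.24, and the target HES1 5543, 9672 and 2990 a.u. (-1.69). The target HEY1 was 5.48-fold higher, with 1539 a.u. on MB and 8426 on NM, and HEY2 was lower, at -2.28. The receptor NOTCH2 had -0.49.

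Wnt genes were split, with 4 of 14 higher and 3 lower. DKK1, a secreted Wnt inhibitor, was 6.79-fold higher (3.83-fold with normexp) and LEF1, a nuclear effector, was lower, from 55010 a.u. on MB to 20725 on NM (-1.41). Of 14 TGF-beta and activin genes, 3 were higher and 3 lower. TGFB1 read 356 ± 16.5, 1194 ± 48.2 and 311 ± 10.1 a.u. (-1.94). TGFB2 was above background on NM alone, at least 7.38-fold higher than MB (3.41-fold with normexp). SMAD3, which carries the signal to the nucleus, was higher, at 2350 a.u. on MB and 9711 on NM (2.05). CCN1, a matrix protein and target of YAP, read 52927, 4031 and 37087 a.u., 9.20-fold higher, and its other probes gave 3.19 and 3.29. Of 10 YAP targets 3 were higher and 0 lower, and CCN2 was within 2-fold at 0.85.

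Proteases and matrix genes did not share a direction. Of 14 metalloproteinases and TIMPs, 4 were higher and 1 lower. MMP1, a collagenase, read 4410 ± 171, 343 ± 19.2 and 3220 ± 145 a.u., 9.40-fold higher, and MMP9, a gelatinase, 1462 ± 22.8, 204 ± 7.71 and 2688 ± 46.2 a.u., 13.2-fold higher. MMP13 was above background on NM alone, at 54.2 a.u. MMP2 and MMP14 stayed within 2-fold, at 0.69 and -0.02. Among plasminogen activators and serpins, 3 of 9 were lower and 1 higher. SERPINA3 read 89103, 33180 and 130049 a.u. (1.97), and SERPINE2 64564, 122694 and 46472 a.u. (-1.40).

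Of 14 collagen chains, 5 were lower and 1 higher. COL12A1, which binds fibrils, read 1668, 15176 and 2030 a.u., 7.47-fold lower, and COL8A1 and COL6A3 had -2.28 and -1.81. COL13A1, a transmembrane collagen, was 9.06-fold higher, at 6904, 646 and 5849 a.u., with 3.22 from its second probe. Integrins and laminins were 4 of 23 higher and 5 lower. ITGB5 read 91920, 140533 and 43319 a.u. (-1.70), while ITGAV, its partner chain, was 15071 ± 536 a.u. on MB and 34085 ± 1318 on NM (1.18). Of 13 cadherins and factors of the epithelial to mesenchymal transition, 2 were higher and 2 lower. SNAI1 had -1.27, but SNAI2, ZEB1, ZEB2, CDH2 and FN1 lay between -0.33 and 0.20. CDH3, P-cadherin, was not well above background on MB and at least 8.09-fold higher in NM (3.20-fold with normexp), in a spot with a bright neighbour.

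Of 14 S100 proteins, 6 were lower and 4 higher. S100A16 read 46340, 59948 and 17258 a.u. (-1.80), and S100A6 414314, 446741 and 429050 a.u. (-0.06). S100A9 was above background on NM alone, at 71.5 a.u., and S100A8, its partner, stayed at background on all 3 arrays. Of 5 measured connexins, GJB1 was lower and GJA1 higher. On NM alone GJA1 was above background (248 a.u.), in a spot with a bright neighbour, and a second GJA1 probe stayed at background on both arrays. Axon guidance genes were 7 of 25 higher and 8 lower. UNC5B, a netrin receptor, read 260, 370 and 4261 a.u., 11.5-fold higher, and EPHA4, an ephrin receptor, 1014, 1521 and 263 a.u., 5.79-fold lower.

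Most cell division genes lay within 2-fold, as did 78.9% of all measured genes. Of 25 mitosis genes, 3 were 2-fold or more higher and 0 lower, and of 23 replication genes 1 and 0. Over all measured genes 11.0% were higher and 10.1% lower. PLK1, a mitotic kinase, had a log2 ratio of -0.15, TOP2A 0.35 and PCNA, the replication clamp, 0.02. CDT1, which licenses origins, was the 1 replication gene past 2-fold, with 11698 a.u. on MB and 39200 on NM (1.74). Among CDK inhibitors and p53 targets, CDKN1A stayed at 8451 ± 194 and 8887 ± 189 a.u., BAX was lower at -1.44 on one probe and -0.63 over the mean of its probes, and GADD45B, a stress sensor, was 6.84-fold higher.

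Ribosomal and respiratory genes lay mostly within 2-fold, but the medians of both lists were above that of all measured genes (0.06). Of all measured genes, 11.0% were 2-fold or more higher. Each of the 32 measured ribosomal proteins had a higher signal in NM, 8 of them by 2-fold or more, with a range of 0.36 to 1.27 and a median of 0.86. That median was 0.59 without scaling and 0.26 with quantile normalization, where 3 of the 32 were below 0. For the nuclear-encoded respiratory chain 25 of 26 were above 0 and 1 was past 2-fold (median 0.48). With quantile normalization 19 of the 26 were above 0 (median 0.25) and without scaling 18 (median 0.21). Metallothioneins, which bind zinc and copper, were higher in 8 of 10 cases (median 1.17), from 0.11 for MT3 to 1.75 for MT1F. Their probes may share signal between near-identical members.

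Of 17 hypoxia response genes, 5 were higher and 0 lower (median 0.56), led by LOX, which cross-links collagen (505 ± 11.4 a.u. on MB and 2204 ± 71.8 on NM, log2 ratio 2.12). VEGFA had 0.54 and CA9 was not well above background on MB or NM. In glycolysis, 3 of 19 were higher and 2 lower. The lower ones were the regulatory kinases PFKFB3 (17749 a.u. on MB and 4143 on NM) and PFKFB4 (5.43-fold lower), and ENO2 was the highest at 2.27. NRF2 targets were 4 of 20 higher and 0 lower, with HMOX1, which degrades haem, at 3684 ± 92.8, 869 ± 17.0 and 3256 ± 79.4 a.u. (1.91), while NQO1 had -0.87.

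Of 14 ER chaperones, 2 were higher and 2 lower (median -0.26). HSPA5, the main chaperone of the compartment, read 42024, 26076 and 21868 a.u., a log2 ratio of -0.25, and DNAJC3 was lower at -2.15. XBP1 and HERPUD1 were higher, at 1.56 and 2.01. Of 13 cytosolic chaperones, 3 were lower and 0 higher, with HSPA8 at 293976 a.u. on MB and 126563 on NM (-1.22).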

How the data were processed

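For each array the authors deposited spot intensities from Agilent Feature Extraction (version 9.5.3.1, per the file headers), on a linear scale. In the processed intensity a fitted background surface had been subtracted (in 45015 of 45015 spots of each array), spots had been detrended and low values replaced by a surrogate, with no scaling between arrays. The deposited value table holds the same intensities (130128 of 130128 within 0.1%). Control spots and outlier spots were left out, spots of a probe averaged and arrays scaled to the 75th percentile over 41000 probes.

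Names were updated with a RefSeq table (GRCh38.p14) (by accession in 23434 probes, otherwise by symbol in 2317 and synonym in 1043). A gene was represented by its probe with the highest mean signal. Named genes were the 15 with the largest fold each way whose other probes differed by 2-fold the same way and whose spot had no bright neighbour within 2 positions, list members, and genes that the study names. Genes within 1 Mb were named where 3 or more passed. The comparison and lists were chosen with earlier results of these data known. The number of arrays, 1 per population, limits the precision, and no p-value was computed. Values are printed for some list members only. The calling by fold was run on simulated probes, of which only bright ones were changed, by known folds well away from 5-fold. This checks the calculation alone, and probes changed close to 5-fold or near background were not tried. Alternatives were other scalings (housekeeping genes, quantile, spike-ins, none, another percentile basis), normexp (limma 3.58.1, R 4.3.3, offset 50), signals without background subtraction, stricter or looser filters, and other summaries of spots and probes. Python 3.11.15, numpy 2.4.6, pandas 2.3.3, scipy 1.17.1 and matplotlib 3.10.9 were used.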

Additional observations from a re-analysis of the deposited data

How the results depend on the processing

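No paired analysis was possible because each population has a single array. Counts of probes and genes past 5-fold stayed within 1.5 times the value given in 49 of 60 recomputed counts. Some of these could hardly differ. The deposited value table holds the same intensities and gave the same counts. The median over spots can change only probes printed in several spots, and its counts were also the same. With the fold as its bound, the higher counts stayed at 377 probes and 202 genes. Normexp background correction left 184 probes and 114 known genes higher in NM, and 127 probes and 64 genes lower. With no background subtraction these were 212, 130, 158 and 76. Without the minimum on the brighter array 624 probes were higher. Where both arrays had to be well above background, 286 probes and 108 genes were lower. The remaining counts of known genes ran from 138 to 261 for either direction. Of the 88 genes past 5-fold among the named genes and list members, 0 changed sign in any of the 11 alternatives tried on them, and 0 of the 9 list medians at 1 or more or -1 or less did. Both sets were chosen for large ratios, and the other scalings moved the median of all measured genes by no more than 0.27. A change of sign was thus hardly possible, and its absence is no sign of stability. With normexp, 17 of the 88 fell under 5-fold.

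Dim signals limit the bounds. On NM 31.8 a.u. was the lowest scaled signal well above background against 17.6 on MB, so lower genes need a brighter MB signal for the same bound. The design gives no spread between cultures, and medium, growth form and culture cannot be told apart.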

Other observations

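Genes in no list hold further differences, named here after their values were seen, with folds that were not recomputed under other settings. The sensor and the protease of the inflammasome, which releases mature IL1B, were both higher in NM than MB. NLRP3 read 1212 (OM), 190 (MB) and 2454 a.u. (NM), 12.9-fold higher, and CASP1 121, 25.5 and 279 a.u., 10.9-fold. P2RX7, the ATP-gated channel that can trigger this complex, read 323, 539 and 3327 a.u., 6.17-fold higher, and its relative P2RX4 6.99-fold. SOD2, the mitochondrial superoxide dismutase, read 21336, 9051 and 120852 a.u., 13.4-fold higher. PTX3, a secreted pattern recognition protein, was 8.49-fold higher and CEBPD, a transcription factor of acute inflammation, 6.86-fold. ARRDC4 and ARRDC3, arrestin domain relatives of TXNIP, were 6.89-fold and 6.06-fold higher.

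On the lower side, PTCH1, the Hedgehog receptor, read 75.1, 428 and 36.9 a.u., 11.6-fold lower, and the receptor kinase ALK 229, 716 and 72.2 a.u., 9.92-fold lower. Other transcription factors among the lower genes were FOXD2 (5.13-fold), SOX5 (5.04-fold), TFAP2B (at least 5.81-fold) and RXRG (at least 6.64-fold), while TFAP2A and FOXD3 had log2 ratios of -0.32 and -0.35. LOXL4, which cross-links collagen, read 26454, 67287 and 9125 a.u., 7.37-fold lower.

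Genes past 5-fold that lay within 1 Mb of each other, apart from the chemokines on chromosome 4, include NR1D1, KRT23 and KRTAP1-5 on chromosome 17, all higher, in a span of 933 kb where 3 of 16 measured genes were 2-fold or more higher. MATN4, PLTP and MMP9 were higher in a span of 723 kb on chromosome 20 with 8 of 23. Lower genes were ADORA1, FMOD and PRELP in 320 kb on chromosome 1 (3 of 4 measured), SLCO4A1, NTSR1 and DIDO1 in 206 kb on chromosome 20 (4 of 7) and RIMS2, DCSTAMP and DPYS in 128 kb on chromosome 8 (3 of 3). Other probes of DIDO1 gave log2 ratios of -0.63, 0.47 and 1.96 and those of RIMS2 0.66 and 0.74, so 0 of these 5 were lower by 2-fold. NTSR1, FMOD and DPYS are bounds of at least 3.63-fold, 3.56-fold and 3.31-fold. With 1 array a side, no more than their position is described.

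Markers of other cell types are given as levels. In the endothelial list 4 of 6 were measured, with a summed signal of 447 a.u. on MB and 451 on NM: TEK and CLDN5 were above background on NM alone (222 and 110 a.u., CLDN5 in a spot with a bright neighbour and with its second probe at background) and VWF and PECAM1 were lower. In the leukocyte list 6 of 8 were measured, and CD68, a lysosomal protein, read 1565 a.u. on MB and 5403 on NM. Their part in the other differences was not tested.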
